A study of Rattus norvegicus with 16 samples.

Results

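Genes of fatty acid synthesis and the SREBP1 gene were followed in adult rat liver. The 10 listed genes were Scd (older name Scd1), Fasn, Acaca, Acly, Me1, Elovl6, Srebf1, Thrsp, Pnpla3 and Pnpla5, of 26913 names on the array. They were listed by name, and their probes were found by the RefSeq accession in the scanner files. A probe was matched for 8 of the 10, and all 8 passed the filter on dim probes, beside 11091 features in all. Srebf1 and Pnpla3 had no matched probe and were not analysed here, so SREBP1 itself carries no value below. No member passed the test between any groups. Most of them varied widely between liver pools of the same group, and they tended to be high and low on the same arrays.

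Liver makes fatty acids from sugar in a short chain of cytosolic steps. Citrate leaves the mitochondrion and ATP citrate lyase (Acly) splits it to acetyl-CoA, acetyl-CoA carboxylase (Acaca) makes malonyl-CoA, and fatty acid synthase (Fasn) builds palmitate with NADPH that malic enzyme (Me1) and the pentose phosphate pathway supply. Elovl6 lengthens palmitate and stearoyl-CoA desaturase (Scd) inserts a double bond. SREBP1, made from Srebf1, is a membrane-bound transcription factor that insulin activates in liver, and it is known to drive these genes after feeding and to be low in fasting. Thrsp, also called Spot 14, is a small protein of lipogenic tissues induced by thyroid hormone and carbohydrate, and Pnpla3 and Pnpla5 are related lipid droplet lipases of the patatin-like family.

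Livers came from male Sprague-Dawley rats 78 to 86 days old, long after dosing of their dams, from gestation day 0 until postnatal day 20, had stopped. C litters stayed with their own dams, which received corn oil, and CC litters were cross-fostered at birth between dams of that kind. M litters stayed with dams dosed at 1.0 mg/kg/day with PCBs (polychlorinated biphenyls), organochlorine pesticides and methyl mercury dissolved in corn oil, and MM litters were cross-fostered with mixture exposure before and after birth. A description field calls the M arrays controls, but title and treatment say otherwise, and M is treated as exposed here. Each group had 8 pups whose RNA was pooled in pairs, giving 4 arrays per group and 16 in all. The replicates are thus pools of 2 rats, the labels do not say which pups were siblings, and p-values measure the spread between pools. Each array held liver RNA in Cy5 beside a common rat reference RNA, from 14 cell lines, in Cy3, and dyes were never swapped. The measure is the log2 ratio of liver over reference, a positive value meaning more signal in liver. C and CC arrays shared 1 slide and M and MM arrays the other, so exposure and slide cannot be told apart in M against C and MM against CC.

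Liver signal exceeded background for 35.0% to 41.9% of probes, and log ratios of any pair of arrays correlated at 0.941 to 0.985. All 10 hepatocyte markers were above background on every array. Of the adipocyte markers, whose cells also make fat, Adipoq, Fabp4, Lep and Lipe were above background on no array, while Cfd, Cidea and Retn were above it on all. Of 6 exocrine pancreas markers, Cel, Cela1, Pnlip and Prss1 were above background on no array. The others, Cpa1 and Ctrb1, were above it on some arrays but not on all, and Ctrb1 passed the filter on dim probes.

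Promoter windows were taken from RefSeq (build GRCr8), from 250 bases before to 50 bases after each start site. A window was at hand for 7 of the 10 members. Those of Acly, Scd, Thrsp and Pnpla5 are shown because these genes bracket the pattern below, with the first, second and last varying widely between pools in the log ratio and Thrsp not. Both strands were searched for the SREBP element TCACNCCAC, the E-box CACGTG, the CCAAT box CCAAT and the GC box GGGCGG. Capitals mark matches, and no matches overlapped in these windows. Each is read 5′ to 3′ on the gene's strand, the minus strand in all 4 cases, at chr10:85963582-85963881 (Acly), chr1:253231682-253231981 (Scd), chr1:161138915-161139214 (Thrsp) and chr7:117136987-117137286 (Pnpla5).
Acly: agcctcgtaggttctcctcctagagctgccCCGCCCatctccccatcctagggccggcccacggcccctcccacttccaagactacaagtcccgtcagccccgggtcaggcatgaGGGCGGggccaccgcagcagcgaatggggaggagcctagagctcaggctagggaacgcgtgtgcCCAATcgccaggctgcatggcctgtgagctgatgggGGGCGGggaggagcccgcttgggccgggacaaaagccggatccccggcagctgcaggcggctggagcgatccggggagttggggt
Scd: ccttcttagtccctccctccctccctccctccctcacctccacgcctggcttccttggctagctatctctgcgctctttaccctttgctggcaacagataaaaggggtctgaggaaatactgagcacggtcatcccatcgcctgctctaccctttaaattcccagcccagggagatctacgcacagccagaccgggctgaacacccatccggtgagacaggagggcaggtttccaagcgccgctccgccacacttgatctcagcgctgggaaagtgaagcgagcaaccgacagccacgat
Thrsp: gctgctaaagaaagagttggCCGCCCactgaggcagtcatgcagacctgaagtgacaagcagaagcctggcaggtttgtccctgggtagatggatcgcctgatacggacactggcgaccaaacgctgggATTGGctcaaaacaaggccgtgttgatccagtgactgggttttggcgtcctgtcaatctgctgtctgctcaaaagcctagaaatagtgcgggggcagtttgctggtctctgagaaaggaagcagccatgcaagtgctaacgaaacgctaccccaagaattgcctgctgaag
Pnpla5: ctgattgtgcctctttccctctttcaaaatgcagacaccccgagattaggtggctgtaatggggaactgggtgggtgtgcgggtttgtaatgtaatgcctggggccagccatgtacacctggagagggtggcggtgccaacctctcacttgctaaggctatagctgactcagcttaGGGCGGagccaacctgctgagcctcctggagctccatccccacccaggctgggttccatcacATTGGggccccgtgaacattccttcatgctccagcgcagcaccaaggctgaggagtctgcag
Neither the SREBP element, held by 1.12% of all 33469 RefSeq windows of this length, nor the E-box, held by 6.42%, occurred in these letters in any of the 7 members' windows. A CCAAT box, held by 37.5% of all windows, began at -71 from the start site in Acly, at -121 in Thrsp (minus strand) and at -12 in Pnpla5 (minus strand). GC boxes, held by 33.1% of windows, numbered 3 in Acly, 1 in Thrsp, 1 in Pnpla5 and 5 in Me1. The Scd window held none of the 4 motifs, and the Me1 window held no CCAAT box. Of the measured members with a window, Scd, with neither CCAAT nor GC boxes, and Acly and Pnpla5, with both, varied widely between pools. Thrsp, also with both, did not in the log ratio, and Me1, with GC boxes but no CCAAT box, varied less than Scd, Acly and Pnpla5. Srebf1 and Pnpla3 had windows but no measured value. Whether these motifs bear on the variation was not tested.

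The enzymes that supply carbon and NADPH varied between pools of the same group. Acly log ratios were 1.84, 0.38, 1.63 and 0.76 on C 9 to C 12, 0.54, 0.74, 1.89 and 0.41 on CC 1 to CC 4, 0.89, 0.87, 0.44 and 0.41 on M 5 to M 8, and 0.05, 0.89, 1.54 and 1.56 on MM 1 to MM 4. C 9, C 11, CC 3, MM 3 and MM 4 were high, M arrays lay close together, and all groups overlapped. Me1, in the same order of arrays, stood at 0.22, -0.58, -0.24 and -0.35 in C, -0.43, -0.93, 0.06 and -0.91 in CC, 0.15, 0.33, -0.30 and -0.50 in M, and -0.34, -0.34, -0.54 and 0.25 in MM. Here C 9, CC 3, both M 5 and M 6, and MM 4 were highest in their groups.

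The committed steps came next. Acaca was dim, above background in liver on 12 of 16 arrays (4 in C, 2 in CC, 4 in M and 2 in MM), so that its ratios are compressed. They were 0.64, 0.01, 0.29 and 0.19 in C, -0.27, -0.01, 0.45 and 0.12 in CC, 0.21, 0.10, 0.14 and 0.01 in M, and 0.03, 0.51, 0.06 and 0.16 in MM. C 9, CC 3 and MM 2 led their groups. Fasn, which the liver expressed well above background on every array, gave 2.61, 0.58, 1.05 and 0.41 in C, 0.92, 1.11, 1.85 and 0.37 in CC, 1.34, 1.06, 0.43 and 0.86 in M, and 0.37, 1.1, 0.67 and 1.3 in MM. The C 9 pool stood far above the other C pools and CC 3 led CC, while all 4 groups reached down to between 0.37 and 0.43.

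Elongation and desaturation followed. Elovl6 read 1.18, -1.45, -0.63 and -1.32 in C, -1.18, -1.18, -0.86 and -1.19 in CC, -0.59, -1.01, -1.29 and -1.49 in M, and -1.13, -0.77, -0.52 and -0.58 in MM. By this probe, the brighter for Elovl6, C 9 was the only array on which liver exceeded the reference. Scd had the liver far above the reference on every array, at 4.85, 3.70, 5.50 and 3.97 in C, 2.66, 3.88, 5.28 and 4.36 in CC, 4.02, 4.30, 3.69 and 3.66 in M, and 3.81, 4.25, 3.57 and 4.48 in MM. Both the highest values, on C 11 and CC 3, and the lowest, on CC 1, came from control litters. The M and MM pools lay between 3.57 and 4.48.

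Thrsp and Pnpla5 took opposite ends. Thrsp was at 4.72, 4.58, 4.37 and 4.35 in C, 4.64, 4.65, 4.70 and 4.46 in CC, 4.37, 4.47, 4.27 and 4.19 in M, and 4.51, 4.53, 4.10 and 4.12 in MM, a narrow band in the log ratio. Pnpla5 was at 4.35, 0.55, 1.70 and 3.00 in C, 0.30, 0.85, 4.51 and 1.71 in CC, 3.36, 3.46, 0.55 and 0.69 in M, and 0.93, 1.82, -0.07 and 1.41 in MM. In every group but MM the Pnpla5 ratio was high in some pools and far lower in others. The liver signal was modest even at its highest, with a median intensity of 535 on C 9 and 514.5 on CC 3. Median liver background on those arrays was 70.25 and 70. The Pnpla5 reference signal was above background on 2 of 16 arrays, so its ratio is set against a near-empty channel, and on CC 1 and MM 3 the liver signal was not well above background either.

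**Figure D1:**
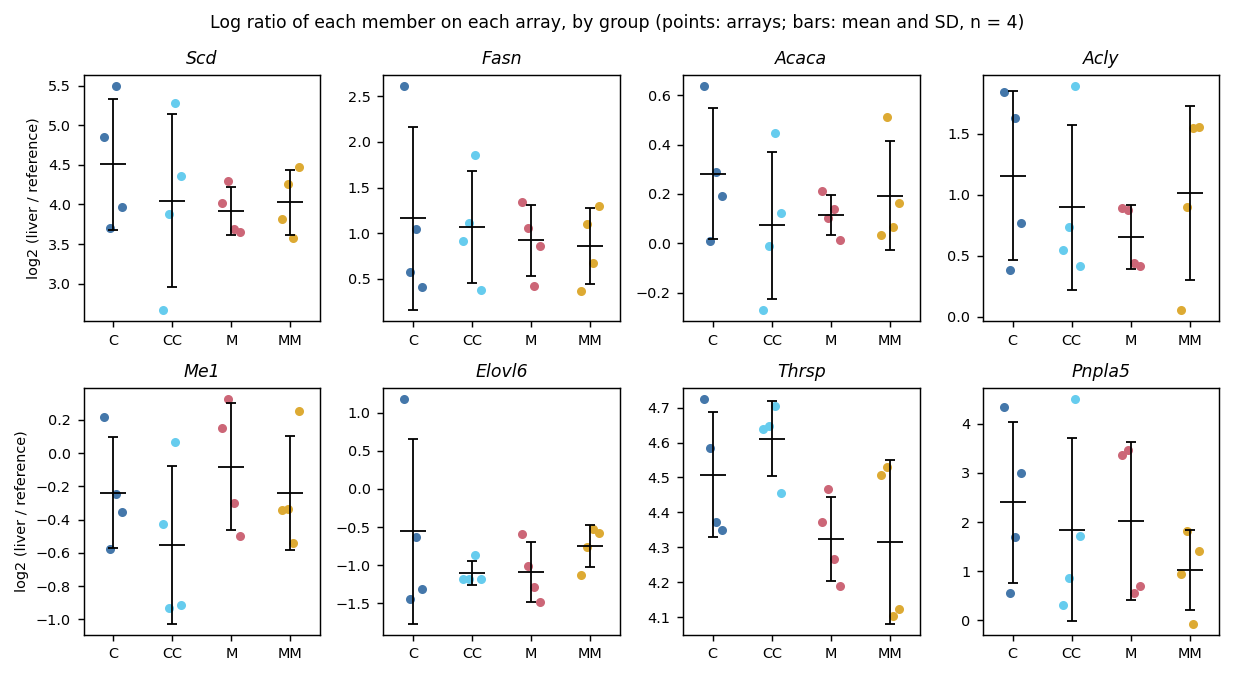
Log2 ratio of liver over reference (vertical axes, each panel on its own scale) for the 8 measured members in groups C, CC, M and MM. Points are arrays in order of their number, bars the group mean and SD (n = 4), and the groups overlap in every panel, with Pnpla5 running from -0.07 to 4.51 and Thrsp from 4.10 to 4.72.

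Most of these genes varied more between pools than most features did. The within-group SD of the log ratio, ranked from the largest among 11091 features, was 0.73 for Scd (rank 39), 0.66 for Elovl6 (rank 62), 0.65 for Fasn (rank 65) and 0.62 for Acly (rank 90). The median feature had 0.18. Me1 stood at rank 753 with 0.39 and Acaca at rank 3477 with 0.23. Thrsp, at rank 6380 with 0.17, was below the median feature. From lowest to highest array the Scd ratio spanned 7.15-fold, Elovl6 6.36-fold, Fasn 4.75-fold, Acly 3.58-fold, Me1 2.39-fold and Acaca 1.88-fold. The Elovl6 and Fasn spans had C 9 at their upper end, and all other Elovl6 arrays lay between -1.49 and -0.52. By group the SD of Elovl6 was 1.21 in C, 0.16 in CC, 0.39 in M and 0.27 in MM. That of Fasn was 1.01, 0.61, 0.39 and 0.42 in the same order. Pnpla5, with its near-empty reference, was ranked in the liver channel alone, where its within-group SD of 1.06 stood at rank 8. Scd stood there at rank 38, Fasn at 45, Elovl6 at 69, Acly at 107, Me1 at 760 and Acaca at 6110. The Pnpla5 liver signal spanned 9.48-fold, with arrays not well above background at its low end. Whether fewer cells of a type or less RNA per cell lie behind a lower value cannot be told apart in whole liver.

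The members were high and low together. After group means were removed, 27 of the 28 pairs of members correlated positively over the 16 arrays, with a median Pearson r of 0.60. The test reassigned arrays within groups in all 331776 ways (exact permutation, two-sided), and p-values were adjusted over the 28 pairs by Benjamini-Hochberg. By this test 13 pairs passed at an adjusted p under 0.05, and 11 did by Spearman's rho. Fasn and Elovl6 had the highest r, 0.86 (rho 0.81, exact permutation adjusted p = 0.00914). Fasn also varied with Acly at r 0.77 (rho 0.80, exact permutation adjusted p = 0.0122) and with Me1 at 0.74 (rho 0.68, exact permutation adjusted p = 0.0143). Pnpla5 varied with Acaca at 0.78 (rho 0.72, exact permutation adjusted p = 0.00914) and with Me1 at 0.78 (rho 0.69, exact permutation adjusted p = 0.0159). Scd passed only with Acaca, at r 0.76 (rho 0.75, exact permutation adjusted p = 0.0355), and its r with Fasn was 0.50. Elovl6 had no feature among the other 11090 more like it than Fasn. None of the 7 pairs with Thrsp passed, with r from -0.08 (Acly) to 0.43 (Fasn).

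**Figure D2:**
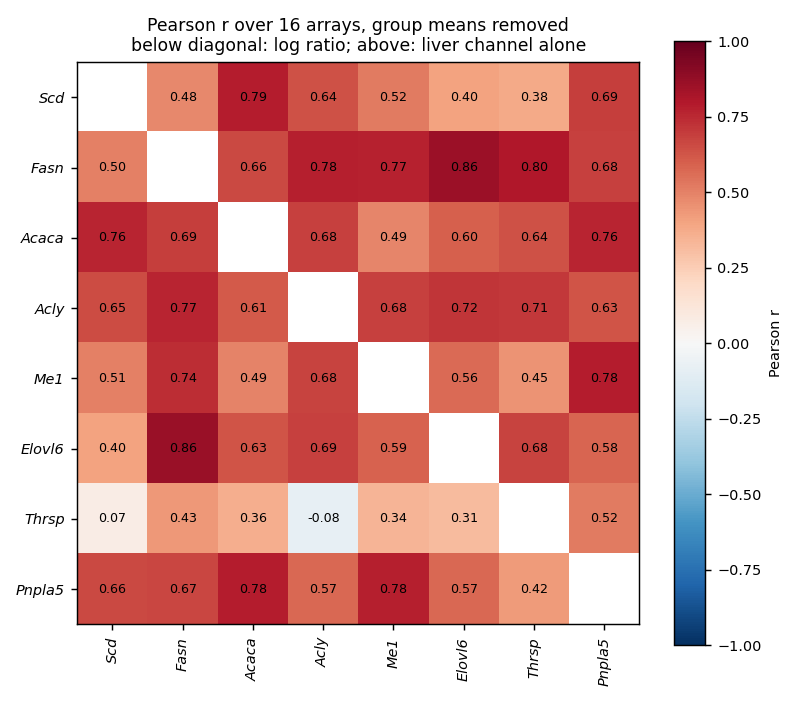
Pearson r of each pair of members over 16 arrays after group means are removed, from the log ratio below the diagonal and from the liver channel alone above it, on a colour scale from -1 to 1. Fasn and Elovl6 reach 0.86 in both, and Thrsp with Acly goes from -0.08 in the log ratio to 0.71 in the liver channel.

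Much of this rested on a pair of pools from control litters. CC 3 was the highest of its group for all 8 members and C 9 for 7 of 8, the exception being Scd on C 11. C 10 was lowest in its group for 6 members and M 8 for 6. As the mean of the members' deviations in within-group SDs, C 9 stood at 1.47 and CC 3 at 1.30, against -0.93 to 0.51 on the other 14 arrays. Without C 9 and CC 3 the median r was 0.37, 25 of 28 pairs stayed positive and 1 pair passed, Acly with Elovl6 (r 0.85, exact permutation adjusted p = 0.00675). Without CC 3 alone the same pair was the only call, and without C 9 alone 5 pairs passed. Leaving out C 10 or CC 2 gave 8 in each case. The Acly and Elovl6 pair, at r 0.69 and rho 0.88 on all arrays (exact permutation adjusted p = 0.000422), thus passed with and without those pools. Neither array was unusual in the share of probes above background, 39.1% on C 9 and 37.4% on CC 3.

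Position on the slide was set against the same pairs. Each group had 2 arrays in each of the 2 slide rows. Both row 1 arrays of M, M 5 and M 6, lay above both row 2 arrays for 7 of 8 members, an order that 31.5% of all features had. That order held for 1 member in C, 1 in MM and none in CC, against 25.2%, 30.2% and 27.2% of all features. The opposite order, row 1 below row 2, held for 3 members in CC and 2 in MM, and for none in C and M. Of all features, 24.1% had the opposite order in CC, 29.2% in MM, 25.5% in C and 27.4% in M. With the mean of each group and row removed, all 28 pairs were positive with a median r of 0.76, from 0.50 to 0.94. No pair passed in that setting, where the 256 possible reassignments allow no p below 0.0078. In the liver channel alone, 20 pairs passed and the median r was 0.67.

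Beyond the members, the symbols most like their mean included enzymes that feed fatty acid synthesis or use its products, beside genes of other kinds. Pklr, the liver pyruvate kinase at the end of glycolysis, had an r of 0.86 with it over 16 arrays, and Acsl5, which activates fatty acids to acyl-CoA, had 0.84. Without C 9 and CC 3 their r was 0.56 and 0.60. The Pklr log ratio was 4.37 on C 9 and 4.16 on CC 3, against 3.52 to 3.95 elsewhere. Also among them were Creb3l1, a transcription factor of the endoplasmic reticulum membrane (0.83), Aldh1b1, a mitochondrial aldehyde dehydrogenase (0.83), Arsb, a lysosomal sulfatase (0.82), Spryd3 (0.80) and the kinase Map2k3 (0.79). At the other end stood the metallothioneins Mt2A (-0.83) and Mt1 (-0.82), the kinase Cdk18 (-0.81) and Bckdhb, a subunit of branched-chain ketoacid dehydrogenase (-0.79). Mt2A was at -0.47 on C 9 and 0.31 on CC 3, where no other array was below 1.07. These values describe likeness over the 16 arrays, and carry no test.

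**Figure D3:**
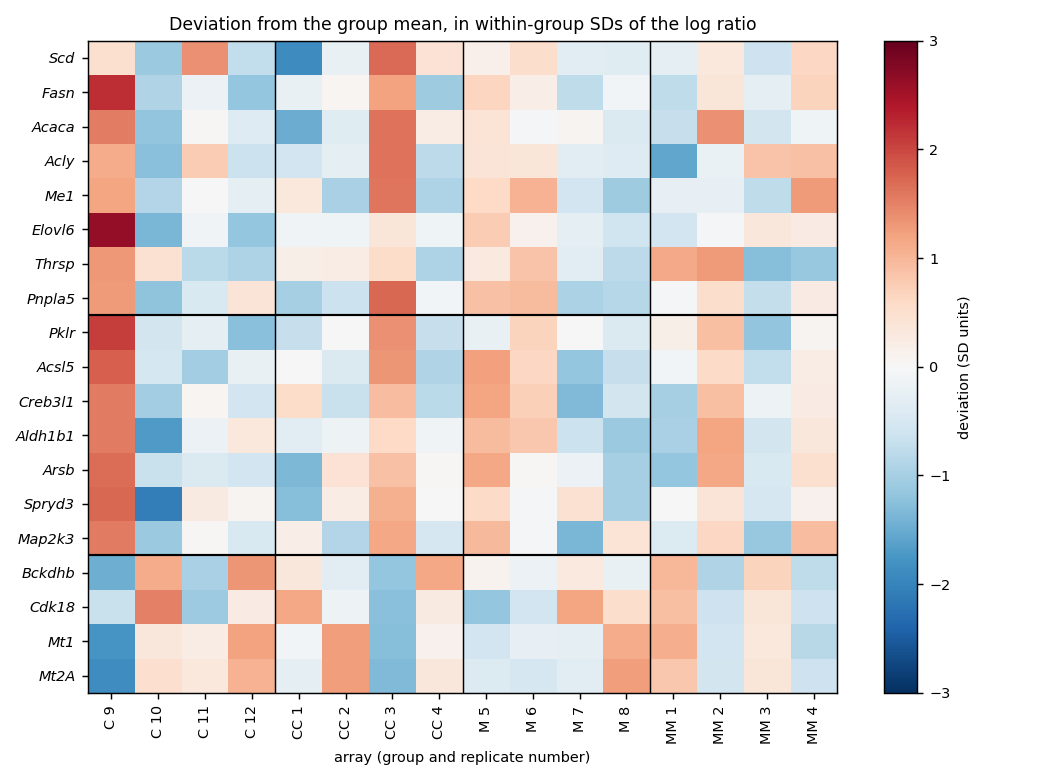
Deviation of each gene's log ratio from its group mean, in within-group SDs (colour, -3 to 3), for the 8 members (top), 7 symbols among those most like their mean (middle) and the 4 least like it (bottom), on the 16 arrays in columns. C 9 and CC 3 are the warmest columns for the members, whose means there are 1.47 and 1.30, and are cold for Mt1 and Mt2A.

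Likeness to the members was also read over whole lists of related genes, of which the fatty acid supply list holds Pklr and Acsl5. Of 14 tested genes of fatty acid supply and NADPH, 13 correlated positively with the members' mean (median r 0.39), and of 8 genes of desaturation and elongation 7 did (median 0.26). The median was 0.07 for 11 genes of glycerolipid synthesis, -0.05 for 17 genes that control SREBP1 and lipogenic transcription, and 0.00 over all features. Among 11 genes of fasting and feeding the largest were Angptl4, an inhibitor of lipoprotein lipase (0.62), and, in the opposite sense, the insulin receptor substrate Irs2 (-0.59), Igfbp1 (-0.57) and the gluconeogenic Pck1 (-0.50). The median r of those 11 was 0.08, with 6 above 0. Angptl4, Irs2, Igfbp1 and Pck1 are all known to be high in fasting. Of these, Angptl4 alone ran with the members and the others ran against them. Of 10 clock genes, Nr1d1 (-0.51), Bmal1 (0.40), Tef (-0.37) and Dbp (-0.33) were the largest. Markers of Kupffer cells, the resident macrophages, ran against the members for 7 of 8 genes, from -0.33 (Clec4f and C1qa) to -0.56 (Marco), with C1qb at 0.21. In the liver channel alone C1qb was at -0.35. All 6 tested erythroid markers ran with the members, from 0.12 (Hba-a1) to 0.35 (Ahsp), and from 0.15 to 0.50 with the mean of each group and row removed. All 4 tested cholangiocyte markers were above 0 (0.05 to 0.43), both of lymphocytes were below it (-0.04 and -0.28), and markers of hepatocytes, adipocytes, sinusoidal endothelium and stellate cells lay on both sides. The summed Kupffer marker signal was 7728 to 13428 units in C, 8199.9 to 12446 in CC, 10259 to 11994 in M and 7609 to 13708 in MM. The summed erythroid signal was 92619 to 119630 in C, 57237 to 108240 in CC, 48401 to 81553 in M and 57678 to 156000 in MM, with every M array below every C array. The part of these cell types, of feeding state or of time of day in the members' variation was not tested.

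The first comparison asked whether cross-fostering of control litters left a mark, CC against C. Most members had a lower mean in CC, by less than the spread between pools. The difference was -0.46 ± 0.45 for Scd (SE, 4 pools a group, 95% interval -1.42 to 0.51), -0.55 ± 0.41 for Elovl6 (-1.42 to 0.32), -0.31 ± 0.25 for Me1 and -0.26 ± 0.39 for Acly. Fasn stood at -0.10 ± 0.41, Acaca at -0.21 ± 0.15, Pnpla5 at -0.56 ± 0.95, and Thrsp alone was above 0, at 0.10 ± 0.12. The median was -0.29 over the members with 7 of 8 below 0, against -0.01 and 53.9% below 0 over all features. By limma with Benjamini-Hochberg adjustment over all features no member was called (adjusted p = 1.00 for each), as was 0% of all 11091 features. At an unadjusted p under 0.05 stood 106 features (0.956%), no member among them. Without C 9, Elovl6 was at 0.03, Fasn at 0.39 and Pnpla5 at 0.09, and without CC 1 Scd was at 0.0046.

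Cross-fostering of exposed litters, MM against M, gave values on both sides of 0. Acly was at 0.36 ± 0.39, Elovl6 at 0.34 ± 0.41, Scd at 0.11 ± 0.45, Acaca at 0.08 ± 0.15, Thrsp at -0.01 ± 0.12, Fasn at -0.06 ± 0.41, Me1 at -0.16 ± 0.25 and Pnpla5 at -0.99 ± 0.95. The 95% interval of Pnpla5 ran from -3.01 to 1.03. limma called no member (adjusted p = 1.00 for each) and 0% of features, with 197 features (1.78%) but no member at an unadjusted p under 0.05. The median over members was 0.03, against 0.00 over all features.

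Whether fostering acted differently in exposed and control litters was tested as an interaction, MM minus M less CC minus C. It was largest for Elovl6, 0.89 ± 0.58 (95% interval -0.34 to 2.12), Acly, 0.62 ± 0.54, and Scd, 0.57 ± 0.64. limma called no member here or in the mean of both fostering contrasts (adjusted p = 1.00 for each), and 0% of features in either. At an unadjusted p under 0.05 were 191 features (1.72%) in the interaction and 108 (0.974%) in the mean, with no member in either. In the mean, Me1 was at -0.24 ± 0.17 and Pnpla5 at -0.77 ± 0.67. Without C 9 the Elovl6 interaction was 0.31.

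Exposure without fostering was read from M against C, which share the C arrays with the first comparison and lie on different slides. Scd was at -0.59 ± 0.45 (95% interval -1.55 to 0.38), Elovl6 at -0.54 ± 0.41, Acly at -0.50 ± 0.39, Pnpla5 at -0.39 ± 0.95, Fasn at -0.24 ± 0.41, Thrsp at -0.18 ± 0.12, Acaca at -0.17 ± 0.15 and Me1 at 0.16 ± 0.25. The Me1 difference was 0.03 in the liver channel alone and -0.13 in the reference channel. limma called none of the 8 (adjusted p = 0.495 to 0.906), where it called 4.17% of all features, and no member was under 0.05 unadjusted, where 17.4% of features were. The median over members was -0.31 with 7 of 8 below 0, against -0.03 over all features. All 10 hepatocyte markers were below 0 as well, with a median of -0.23 that was -0.0049 in the liver channel alone and 1 called lower. All 6 tested erythroid markers were below 0, with a median of -0.49 in the ratio and -0.55 in the liver channel and 1 called lower. Of the 3 tested adipocyte markers 2 were below 0, with a median of -0.35 in the ratio and -0.29 in the liver channel and 1 called lower. Other cell types did not share that direction. Of 6 tested markers of sinusoidal endothelium 4 were above 0, with a median of 0.08 in the ratio, 0.15 in the liver channel and 1 called higher. Kupffer markers were split, 4 above 0 and 4 below, with medians of -0.03 and 0.20. Those of stellate cells and cholangiocytes were split evenly, and both of lymphocytes were above 0. The part of those cells in the members' values was not tested. The members' median in that channel was -0.24, with no member called there and 0.00902% of features. Without C 9, Elovl6 was at 0.04, Fasn at 0.24 and Pnpla5 at 0.27.

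Exposure with fostering, MM against CC, showed no shared direction. Me1 was at 0.31 ± 0.25, Elovl6 at 0.35 ± 0.41, Acaca at 0.12 ± 0.15, Acly at 0.12 ± 0.39, Scd at -0.02 ± 0.45, Fasn at -0.20 ± 0.41 and Pnpla5 at -0.82 ± 0.95. Me1 held 0.15 in the liver channel alone and -0.14 in the reference channel. Thrsp, at -0.30 ± 0.12 (95% interval -0.55 to -0.04), was the member nearest to a call, with an adjusted p of 0.341 by limma. In the liver channel alone its difference turned to 0.06. Of all features limma called 0.893%, and no member. In the liver channel alone it called 0.027%, and no member. At an unadjusted p under 0.05 were 11.1% of features and, of the members, Thrsp. In no pair of groups were all arrays of any member apart from all arrays of the other group, which held for 0.866% of features in CC against C, 1.14% in MM against M, 11% in M against C and 6.56% in MM against CC.

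**Figure D4:**
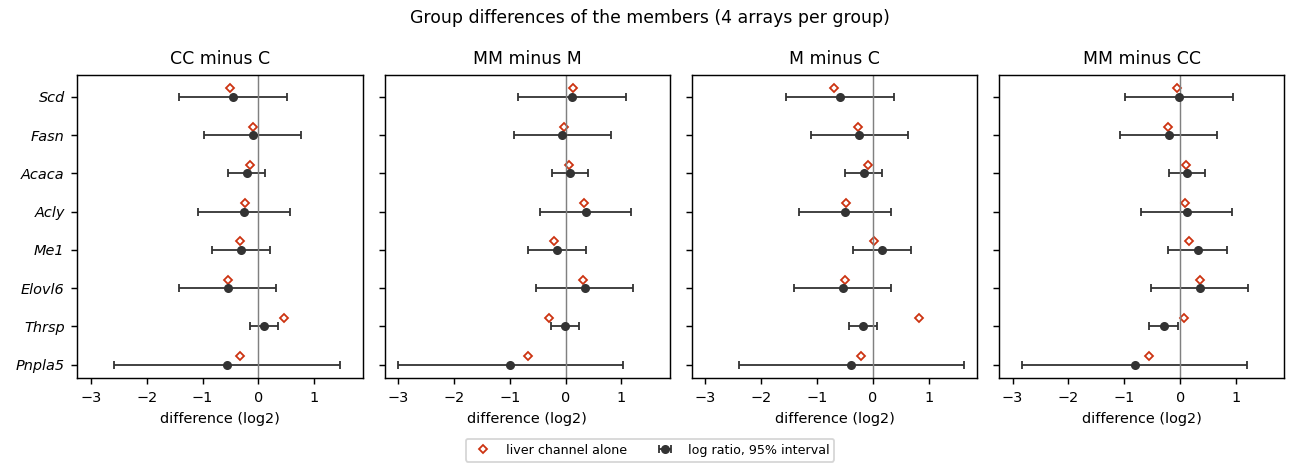
Differences of the 8 members (rows) in 4 comparisons (panels), in log2 units, as the log ratio with its 95% interval (black) and as the liver channel alone (open diamonds). Every interval crosses 0 except that of Thrsp in MM minus CC, -0.55 to -0.04, and the liver channel sits farthest from the log ratio for Thrsp in M minus C.

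Thrsp read differently in each channel. Its liver signal in log2 units was 11.08 ± 0.61 in C, 11.54 ± 0.44 in CC, 11.90 ± 0.29 in M and 11.60 ± 0.33 in MM (SD, n = 4), so that M stood 0.82 ± 0.28 (SE) above C (limma adjusted p = 0.369). The Thrsp reference signal, from 1 common RNA, was 0.87 ± 0.23 higher in M than in C, and the ratio was left at -0.18. Within groups the reference and liver signals of Thrsp correlated at 0.93 over the 16 arrays, against 0.06 for Scd, 0.39 for Fasn and a median of 0.29 over all features. Only 0.730% of features exceeded 0.9. In the liver channel alone the within-group SD of Thrsp was 0.43, rank 512 of all features, and its r with Fasn was 0.80 (exact permutation adjusted p = 0.0220) and with Acly 0.71 (exact permutation adjusted p = 0.0220). What moves the Thrsp reference signal with the liver signal was not tested, and the direction of Thrsp in M against C and in MM against CC turns between the ratio and the liver channel.

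**Figure D5:**
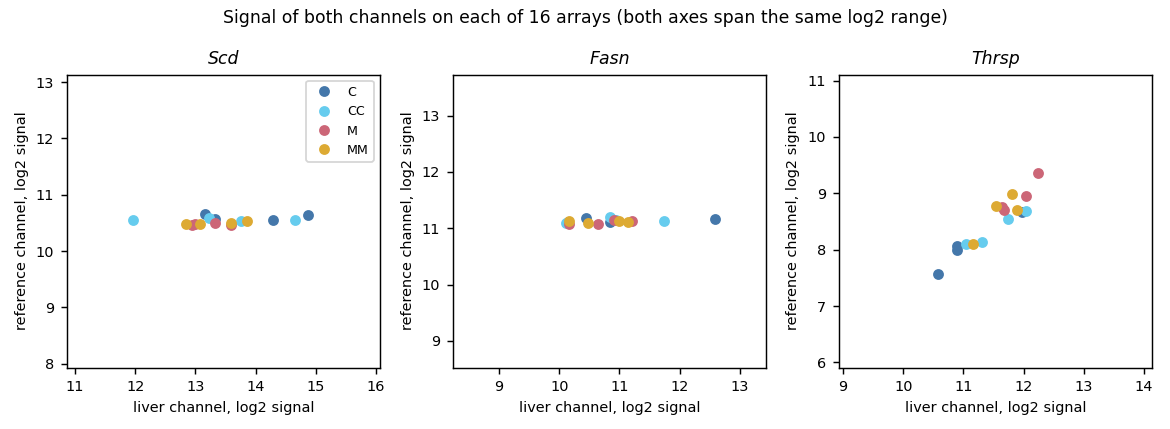
Log2 signal in the liver channel (horizontal) and the reference channel (vertical) on each of the 16 arrays, coloured by group, for Scd, Fasn and Thrsp. Both axes of each panel span the same range, and the reference varies by 0.20 for Scd and 0.11 for Fasn but by 1.78 for Thrsp, along with the liver signal.

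A second probe was present for Me1 and for Elovl6. The second Me1 probe varied with the first at r 0.78 within groups, and M minus C, 0.16 by the first, was -0.16 by the second. Its log ratios were above 0 on every array, from 0.29 to 1.46, where most by the first were below 0. The second Elovl6 probe, above background in liver on 5 of 16 arrays, varied with the first at 0.97 and also put C 9 on top, at 1.90 against -0.36 to 0.16 on the other C arrays. By that probe liver also exceeded the reference on C 11 (0.16) and on CC 3 (0.07), where the liver signal was not well above background. Its M minus C was -0.98 in the log ratio and -0.40 in the liver channel.

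Other genes of the pathway moved little between groups. Of 50 tested genes in the lists of fatty acid supply, desaturation and elongation, glycerolipid synthesis and SREBP1 control, 2 were called higher in M against C and none lower, beside 1.56% of all features called higher and 2.61% lower. Neither was called in the liver channel alone. Slc25a1, the mitochondrial citrate carrier that feeds Acly, stood 0.71 ± 0.13 above C in the ratio (limma adjusted p = 0.00603), of which the liver channel held 0.19 and the reference channel -0.52. Gpat4, an enzyme of glycerolipid synthesis, stood 0.61 ± 0.11 above C in the ratio (limma adjusted p = 0.00507), made up of 0.49 from liver and -0.13 from reference. No gene of these lists was called in the other comparisons. In CC against C the largest differences were -0.32 ± 0.32 for Insig2, a retention protein of SREBP, and -0.28 ± 0.24 for the lipid droplet protein Plin2. Among the largest in MM against M was -0.47 ± 0.29 for Mttp, which loads lipid onto lipoproteins, and in the mean of both fostering contrasts Mttp was at -0.31 ± 0.21. The interaction was largest for Agpat2, -0.56 ± 0.23, and Elovl2, -0.49 ± 0.49, and MM against CC for Apob, -0.57 ± 0.28, and Slc25a1, 0.50 ± 0.13. In the liver channel alone Apob was at -0.44 there, while Slc25a1 turned to -0.03, with the reference channel at -0.54.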

How the data were processed

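Scanner files of 16 arrays hold median spot and background intensity of both channels, per the file headers, from Agilent Feature Extraction 11.0.1.1. They also hold a log10 ratio of red over green that the authors' scanner software had background-corrected and dye-normalized, per the file headers. The authors' deposited value table is on the log2 scale, as inferred from its slope of 0.980 to 0.994 on log2 ratios computed here without background subtraction. The correlation with those ratios was 0.989 to 0.996. The centring of the authors' table is unknown, and no label or header says how it was made.

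In limma 3.58.1 (R 4.3.3), intensities were corrected with normexp (offset 50), loess-normalized array by array, and averaged over spots without 732 to 1138 outlier spots per array. Accessions without version matched 18005 of 30367 probes to RefSeq symbols (GRCr8 table). The brightest probe stood for each name. Features well above background in liver on at least 3 of 4 arrays of a group were tested, with 4 group means, 12 residual degrees of freedom and Benjamini-Hochberg adjustment, called under 0.05. The fit and the permutation test were tested on simulated data. The liver channel alone was quantile normalized. Alternatives covered background correction, scaling, the scanner's and the authors' ratios, probe filter and choice, slide row and arrays left out.

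The members and lists were chosen with earlier results of these data known. Named are all members, list genes that were called or had the largest differences, and the symbols most and least like the members' mean. Features without a symbol were passed over in the last of these, and a few genes that the rule names are not reported here. CC and MM arrays share the numbers 1 to 4 in the labels, and same-numbered arrays deviated together (r 0.55, 0.16, 0.58 and 0.19), so a fit with the number as a block was run on them. Same-numbered arrays also lay in the same slide row.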

Additional observations from a re-analysis of the deposited data

Results flagged for a closer look

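For Elovl6 in CC, the CC 3 array lay apart from the others of its group, at a log ratio of -0.86 where CC 1, CC 2 and CC 4 read -1.18, -1.18 and -1.19. The gap was 0.967 of the group's range, above Dixon's critical value for 4 samples. Of 32 sets of 4 arrays checked (8 members in 4 groups) this was the only such gap, and chance alone gives about 1 in 20. CC 3 was the highest CC array for all 8 members.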

How the results depend on the processing

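Precision was limited by 4 pools a group and, for Acaca and Pnpla5, by signals near background. Calls of members stayed at 0 in every contrast under every setting run but 1, the scanner software's own log ratio, where 1 member was called in M against C (Thrsp, -0.46, limma adjusted p = 0.0101) beside 1366 features. The replicate block on CC and MM arrays changed no member's call (Elovl6 0.35 ± 0.10, limma adjusted p = 0.159). Of 28 pairs, 13 passed in the main setting. Other background corrections, the scanner's ratio, the authors' table or the mean over probes gave 12 to 16. The liver channel alone gave 20, and with group and slide row removed 0 passed. Without C 9 and CC 3 1 pair passed, and with each array left out in turn 1 to 15 did. The scaling between arrays that was run leaves the log ratio unchanged, so it could not change these counts or the calls of members. Within the second slide row the direction turned for Scd (0.087) and Acaca (0.046) in CC minus C, Pnpla5 (0.051) in MM minus M, Acaca (-0.0080) in the interaction, and Me1 (0.063) and Pnpla5 (0.41) in the mean of both fostering contrasts. In the liver channel alone it turned for Thrsp in M minus C (0.82) and MM minus CC (0.061). Leaving out single arrays gave -0.87 to 0.0046 for Scd in CC minus C, and -0.85 to 0.031 (CC minus C) and -0.84 to 0.040 (M minus C) for Elovl6, the upper values without C 9. Leaving out C 9 and CC 3 together, an alternative chosen after seeing the data, called no member and gave 0.040 for Elovl6 in M minus C. Where single values turned or moved, the cause was not tested.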

Other observations

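Some list genes outside the naming rule, chosen after their values were seen, varied with or against the members' mean over the 16 arrays after group means were removed. Tecr, the enoyl-CoA reductase of fatty acid elongation, had an r of 0.64, and 0.59 without C 9 and CC 3. Insig1, a gene that SREBPs are known to induce, had 0.47, and 0.18 without that pair of pools. Against the members ran Nr0b2, a nuclear receptor also called SHP, at -0.61, and Pnpla2, the main triglyceride lipase of lipid droplets, at -0.59. Without C 9 and CC 3 those stood at -0.62 and -0.65. These are descriptions with no test.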
